A study of Mus musculus with 21 samples.

Results

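The T-lineage specification genes described here were Tcf7, Gata3, Bcl11b, Notch1, Il2ra, Cd3d, Cd3e, Cd3g, Thy1 and Cd2, 10 of the 20014 genes that could be named on single-colour Agilent mouse arrays. They were chosen by name, with earlier results of these data known. Counts among them, set beside shares of all genes, are therefore a description. Their probes were found through the RefSeq accession of each probe, and 14 of 55681 gene probes matched. Tcf7, Bcl11b, Notch1 and Cd2 had 2 probes and the other genes 1, and the brightest probe of a gene over all 21 arrays stood for it.

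The arrays belonged to 3 experiments on Bach1 and Bach2, related basic leucine zipper proteins that repress transcription, with 3 arrays in each of 7 groups. Common lymphoid progenitors (CLPs) came from bone marrow of mice lacking Bach1 and Bach2 together (DD) and of wild-type (WT) mice. Their RNA was pooled over mice, and cells bearing lineage markers, CD3e among them, had been partly removed on beads before sorting on Sca-1, CD135, CD117 and CD127. Multipotent progenitors (MPPs; Lin-, c-kit+, Sca-1+, Flt3mid) came from WT mice, 4 mice per experiment, and carried a retroviral vector with Bach2 and GFP or the control vector MSCV-GFP. GFP+ cells of these groups were sorted after 2 days of multilineage culture. In a further group, Bach2-vector cells spent 24 h in multilineage culture and 6 days under B-lineage conditions before cells positive for GFP and B220 were sorted. For all of these MPP-derived groups the labels list the cytokines SCF, IL-3 and IL-6. Follicular B cells of Bach2KO and WT mice were stimulated in culture for 24 h by an anti-IgM Fab' fragment at 10 ug/ml, and their labels name no sort gate. No label used here gives the ages of the mice. For no group do the labels say whether its arrays came from separate animals or separate pools, and for follicular B cells the label mentions 1 RNA sample. In all 3 experiments p-values may therefore measure a spread that is partly technical.

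T-cell specification begins when a progenitor in the thymus meets Notch ligands. Ligand binding cuts the receptor Notch1, and its inner part joins the DNA-binding protein RBPJ to switch on target genes, among them Tcf7, which encodes TCF-1. TCF-1 and GATA3 then act with Notch to turn on Bcl11b, whose product closes off other fates, while the IL-2 receptor alpha chain (Il2ra, CD25) appears on the surface and the CD3 chains are made that will carry signals from the T-cell receptor. Bach2 is also known to act in B cells and T cells as a repressor of effector genes.

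A level is the log2 signal less that of the 75th percentile on the same array, so that 0 equals that percentile, and differences between groups are log2 values ± SE with limma's p adjusted over all genes of the comparison. Genes with an adjusted p under 0.05 are said to pass. Levels of different genes come from different probes and are not compared. In these sorted and cultured bulk samples, fewer cells expressing a gene and less RNA per cell cannot be told apart.

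The promoters of Il2ra, Cd3d and Cd3g are shown because these genes differed in direction in B220+ cells, with Cd3d and Cd3g higher and Il2ra lower than in Bach2-vector MPPs. The sequences are from RefSeq (GRCm38.p6), 5′ to 3′ on the strand of the gene. Each covers 250 bases before to 50 after the start site of the promoter entry. Capitals mark motifs found by a search of both strands. The Il2ra promoter lies on the plus strand at chr2:11642542-11642841, the Cd3d promoter on the plus strand at chr9:44981536-44981835 and the Cd3g promoter on the minus strand at chr9:44980382-44980681.
Il2ra: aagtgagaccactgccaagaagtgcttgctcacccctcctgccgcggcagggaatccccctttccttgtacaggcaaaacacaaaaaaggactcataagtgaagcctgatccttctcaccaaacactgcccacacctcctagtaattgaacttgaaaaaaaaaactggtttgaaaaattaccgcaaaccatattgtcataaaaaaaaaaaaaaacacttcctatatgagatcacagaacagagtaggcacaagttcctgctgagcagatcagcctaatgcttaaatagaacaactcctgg
Cd3d: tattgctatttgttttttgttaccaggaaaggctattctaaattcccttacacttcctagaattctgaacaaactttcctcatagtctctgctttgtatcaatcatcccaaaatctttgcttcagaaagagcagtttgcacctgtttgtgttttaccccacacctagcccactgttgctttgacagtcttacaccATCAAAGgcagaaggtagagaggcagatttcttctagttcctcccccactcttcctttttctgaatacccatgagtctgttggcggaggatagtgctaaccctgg
Cd3g: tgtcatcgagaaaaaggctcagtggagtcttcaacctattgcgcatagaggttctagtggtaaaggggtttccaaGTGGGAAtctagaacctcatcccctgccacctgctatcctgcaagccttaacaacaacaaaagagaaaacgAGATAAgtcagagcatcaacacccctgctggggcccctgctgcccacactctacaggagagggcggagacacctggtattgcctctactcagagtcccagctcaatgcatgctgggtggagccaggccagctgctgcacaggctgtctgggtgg

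The CD3 genes lie side by side on chromosome 9, Cd3g from 44969572 to 44980431, Cd3d from 44981769 to 44987052 and Cd3e from 44998735 to 45009663. Cd3d and Cd3g run away from each other, and the start sites of their promoter entries are 1355 bases apart. That of Cd3d, 44981786, lies within the gene span given. Of the 10 genes 8 had promoter entries, 9 entries in all because Tcf7 had 2; Thy1 and Cd2 had none. The motif of TCF and LEF factors, ATCAAAG, was found in the Cd3d promoter at -55 and is present in 3.73% of 32851 promoters of this length. The Cd3g promoter held the RBPJ motif GTGGGAA at -175 and the GATA motif AGATAA at -104, the first found in 6.38% and the second in 11.2% of promoters. The core shared by Bach, AP-1 and Maf factors, TGANTCA, was in 0 of the 9 entries and in 7.81% of all promoters. The motifs do not overlap, and a match to these letters is a description and not a site.

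The share of spots well above background was 66.8% to 81.5% on CLP arrays, 62.6% to 81.4% on MPP arrays and lower on follicular B-cell arrays, at 50.9% to 58.8%, so that weak genes had more often only a bound there. Bach2 itself was lower in Bach2KO follicular B cells, with levels of -0.07, -1.01 and -0.09, while WT cells had 3.49, 3.06 and 3.55 (limma adjusted p = 0.00092). In CLPs it read 1.17, 0.10 and -0.27 in DD cells against 3.46, 1.49 and 2.38 in WT cells, with no overlap (adjusted p = 0.999), and Bach1 read 2.41, 1.14 and 0.88 in DD cells against 1.87, 1.96 and 2.17 in WT cells. Whether these probes lie in deleted sequence was not checked here. The brighter Bach2 probe did not separate the vectors, at -0.92, -2.03 and -2.57 in Bach2-vector MPPs against -3.87, -2.96 and -2.15 in control-vector MPPs (1.15 ± 0.60, adjusted p = 0.774), and it read -2.75, -2.49 and -4.10 in B220+ cells (-0.12 ± 0.60 from control-vector MPPs, adjusted p = 0.909). The dimmer Bach2 probe read -5.12, -5.02 and -1.54 in B220+ cells and -1.25, -3.57 and -3.90 in Bach2-vector MPPs, above background on all 6, against -8.57, -7.11 and -6.34 in control-vector MPPs, above background on 1 of 3. The CLP markers Il7r, Flt3, Kit, Ly6a, Dntt and Rag1 were above background on every CLP array, 6 of 6. The B-cell markers were above background on every follicular B-cell array, 8 of 8.

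**Figure D1:**
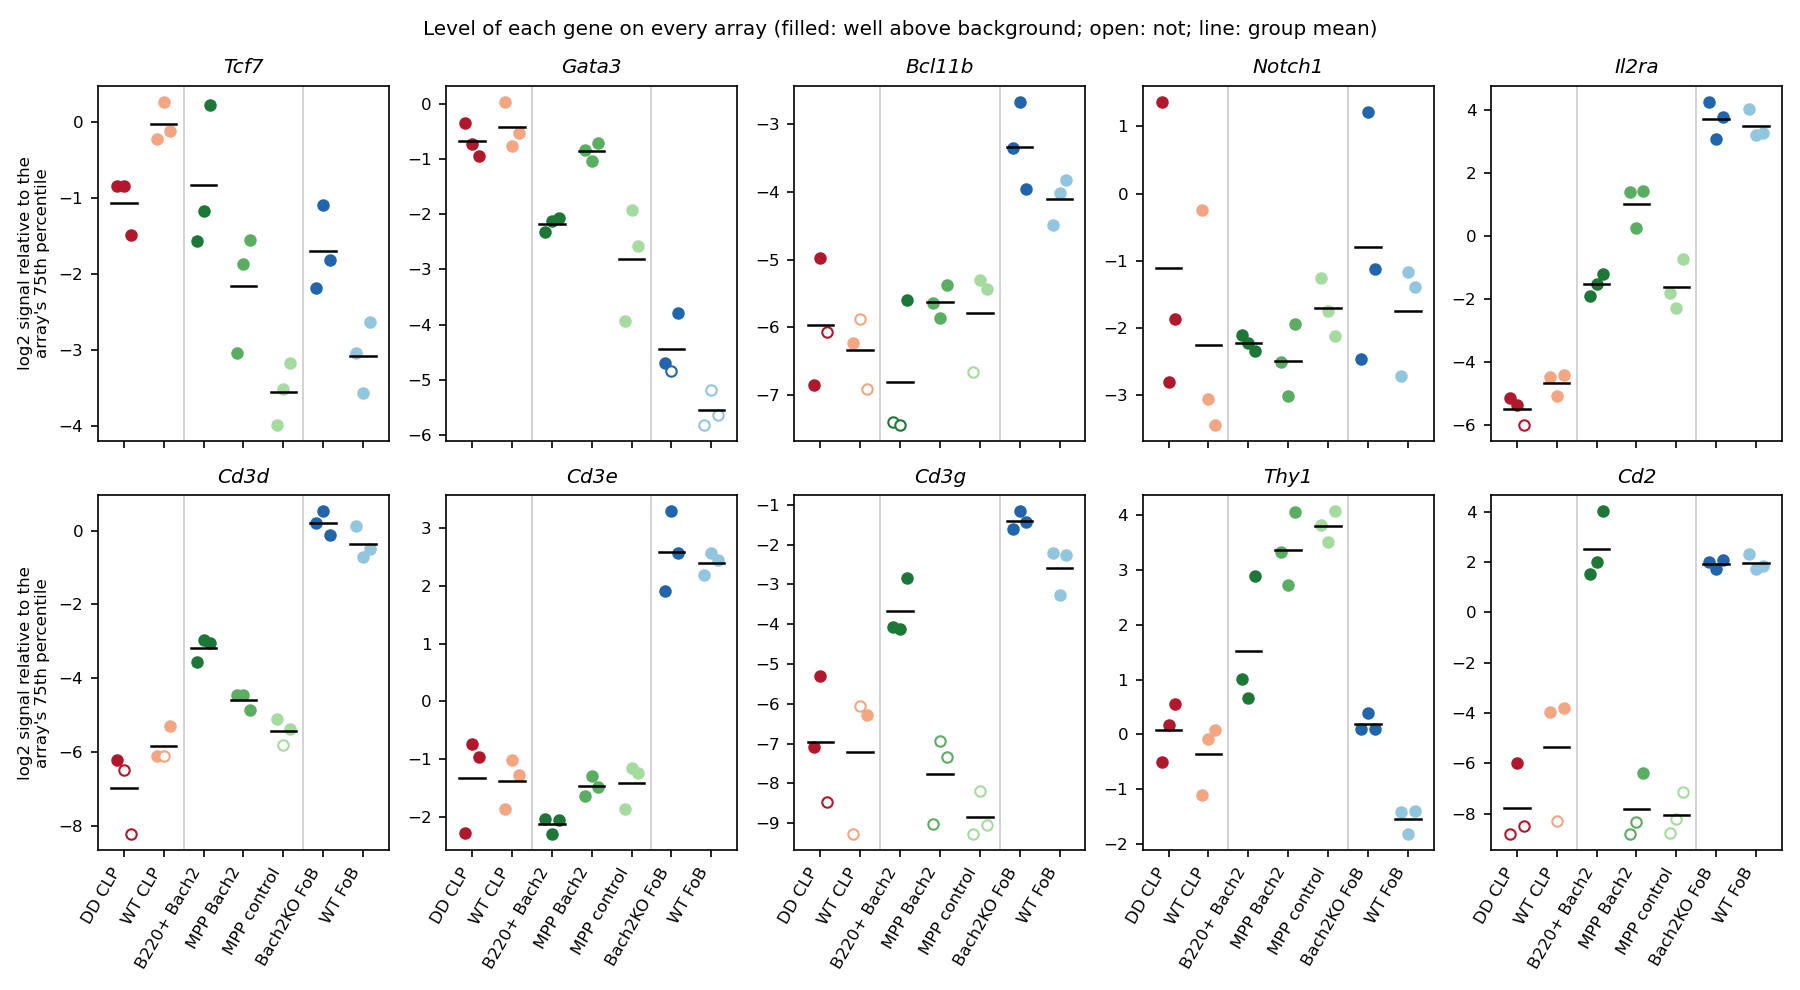
Level of each gene on every array, as log2 signal relative to the 75th percentile of the array, for the 7 groups; filled points were well above background, open points were not, and lines are group means of 3 arrays. Cd2 lies between 1.51 and 4.00 in B220+ cells and in no Bach2-vector or control-vector MPP array above -6.37, and Il2ra is higher on each Bach2-vector MPP array than on every control-vector one.

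The genes differed in where they were highest. Tcf7 was highest in WT CLPs, at -0.03 ± 0.25 (SD, n = 3), and lowest in control-vector MPPs at -3.56 ± 0.41; every neighbouring pair of groups in its order had overlapping arrays. Gata3 was likewise highest in CLPs, at -0.67 ± 0.30 in DD and -0.41 ± 0.41 in WT cells, which overlapped, followed by Bach2-vector MPPs, and was above background on none of the WT follicular B-cell arrays. The first neighbours in its order whose arrays did not overlap were Bach2-vector MPPs (-0.86 ± 0.16) and B220+ cells (-2.17 ± 0.14). These are levels of 3 experiments that differ in cells, culture and RNA amplification, so they are given as a description.

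The CD3 chains, Il2ra and Bcl11b had their highest group means in the follicular B cells. Cd3e, which encodes the epsilon chain that both CD3 pairs contain, stood at 2.58 ± 0.69 in Bach2KO and 2.40 ± 0.19 in WT follicular B cells, and at -1.33 ± 0.83 or lower in the 5 other groups, with no overlap. Il2ra stood at 3.70 ± 0.59 in Bach2KO and 3.50 ± 0.47 in WT follicular B cells, which had been stimulated through the B-cell receptor, and at -5.49 ± 0.45 in DD and -4.64 ± 0.37 in WT CLPs. Bcl11b was weak in every group, with its highest mean at -3.34 ± 0.64 in Bach2KO B cells, and was above background on 15 of 21 arrays. The weakest measurable signal lay at -5.34 to -3.34 on follicular B-cell arrays and at -5.81 or lower on all others, so weak levels there lie near it. The dimmer Bcl11b probe stood at -4.88 in Bach2KO and -5.50 in WT B cells, above background on 1 and 0 arrays. In WT CLPs that probe stood at -5.36, above background on all 3 arrays. Thy1, which encodes a surface glycoprotein of T cells and, in mice, of early blood progenitors, was highest in Bach2-vector MPPs (3.37 ± 0.67) and control-vector MPPs (3.80 ± 0.28), whose arrays overlapped. Cd2, encoding an adhesion receptor of T and NK cells that mouse B cells carry too, was high in B220+ cells (2.49 ± 1.33), Bach2KO (1.92 ± 0.19) and WT follicular B cells (1.96 ± 0.30), whose arrays overlapped, and lay at -3.82 or lower on every other array.

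In DD against WT CLPs none of the 10 genes passed the test, and Tcf7, Il2ra and Cd3d lay lower on every DD array than on any WT array. The comparison asks what the loss of both repressors does in the last progenitor shared by B and T cells. By limma 0 of 10 passed, 1 of 10 (Tcf7) had an unadjusted p under 0.05, and 1 of 16452 genes (0.00608%) passed. The arrays of the groups did not overlap for 3 genes, all lower, against 7.91% of all genes, 2.98% lower and 4.93% higher. The median difference of the 10 genes was -0.10, against 0.04 over all genes.

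Tcf7 read -0.85, -0.85 and -1.50 in DD CLPs, against -0.23, 0.26 and -0.12 in WT CLPs. Each DD array was below each WT array, with differences of -0.63, -1.11 and -1.38 between arrays of the same replicate number, which in CLPs is also the slide. The difference was -1.04 ± 0.35 (limma unadjusted p = 0.0184, adjusted p = 0.999), and the adjusted p was 0.52 with the replicate number as a block. Its dimmer probe gave -1.43 ± 1.21, with 1 of 3 DD and 2 of 3 WT arrays above background.

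Il2ra read -5.12, -5.36 and -5.99 in DD CLPs, the last not well above background, against -4.45, -5.07 and -4.41 in WT CLPs, a difference of -0.85 ± 0.38. Cd3d, the delta chain, read -6.23, -6.49 and -8.23 in DD CLPs, against -6.10, -6.11 and -5.30 in WT CLPs, with 1 DD and 2 WT arrays above background, a difference of -1.14 ± 0.56 that rested mostly on replicate 3. Both had an adjusted p of 0.999. Cd2 was above background on 1 DD array (-6.00, with -8.82 and -8.49 on the others) and on 2 WT arrays (-3.96 and -3.82, with -8.29 on replicate 2), so that its difference of -2.41 ± 1.23 went the other way between the arrays numbered 2.

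Gata3 read -0.34, -0.72 and -0.94 in DD CLPs, against 0.03, -0.75 and -0.52 in WT CLPs, and the groups overlapped (-0.25 ± 0.37). Notch1 read 1.36, -2.80 and -1.88 in DD CLPs, against -0.25, -3.06 and -3.45 in WT CLPs and was higher in DD CLPs at each number, but replicate 1 stood far above the other DD arrays and the difference was 1.15 ± 1.16. Without that array it was -0.09. The dimmer Notch1 probe, with less spread, gave 0.80 ± 0.45. Thy1 was higher in DD CLPs at each number, by 0.59, 0.24 and 0.48, with overlapping groups and a difference of 0.44 ± 0.45. Bcl11b (0.37 ± 0.53), Cd3e (0.05 ± 0.48) and Cd3g (0.25 ± 1.01) differed by no more than their error, and the gamma chain was above background on 2 DD and 1 WT arrays only.

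Of 16 Notch pathway genes, 21 of 22 genes of T-cell receptor signalling, 16 early T-cell transcription factors and 11 cytokine receptor genes tested in CLPs, none passed. Those with the smallest unadjusted p were the Notch target Dtx1 (-0.86 ± 0.37) and the fringe gene Lfng (-1.52 ± 0.88), Cd8a (-1.12 ± 0.54) and the adaptor Skap1 (0.79 ± 0.38), Tox (-1.04 ± 0.32) and Foxp3 (0.94 ± 0.46), and Cish (1.01 ± 0.37) and Il2rb (-0.88 ± 0.38). Tox, a nuclear factor needed for CD4 T-cell development, had no overlap between DD and WT arrays, and neither had Dtx1, Skap1, Cish and Il2rb. NK and innate lymphoid markers had a mean level of -2.40 to -2.05 in DD and -1.72 to -1.36 in WT CLPs, with Ncr1 above background on no DD array; their part in the values above was not tested.

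**Figure D2:**
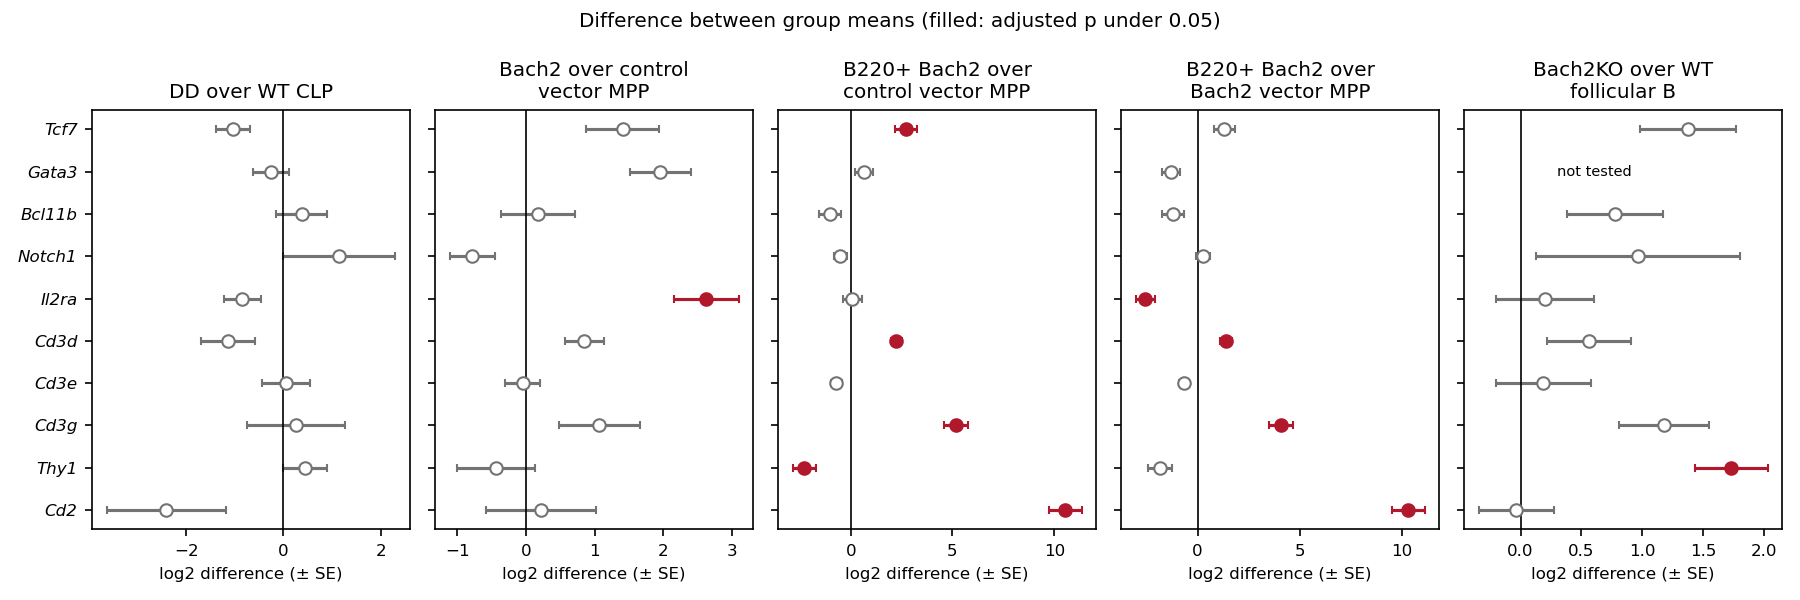
Difference between group means in log2 units, with its SE, for the 10 genes in the 5 comparisons; filled red points had an adjusted p under 0.05 by limma, and Gata3 was not tested in follicular B cells. Each panel has its own horizontal scale, and the called genes are Il2ra between vectors, 5 and 4 genes in the B220+ comparisons and Thy1 in follicular B cells. The calls of Cd3g and Cd2, among the 5 and the 4, carry no weight. Their probes shown here met the minimum signal for a test only through the B220+ arrays.

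Bach2-vector MPPs had more Il2ra than control-vector MPPs, by 6.19-fold, and the means of Gata3, Tcf7 and Cd3d were higher without passing. The comparison asks what added Bach2 does within 2 days, and of the 2 Bach2 probes the dimmer one alone had no overlap between these groups. Il2ra was the 1 gene of 10 that passed, against 1.8% of 16984 genes, 1.07% higher and 0.724% lower. Il2ra, Gata3, Tcf7 and Cd3d had no overlap between vectors, 4 of 10 and all higher, against 14.9% of all genes, 7.65% higher and 7.29% lower. The median difference of the 10 was 0.53, against -0.02 over all genes.

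Il2ra read 1.40, 0.26 and 1.44 in Bach2-vector MPPs, against -1.79, -2.28 and -0.71 in control-vector MPPs. Every Bach2-vector array lay above every control array, and the difference was 2.63 ± 0.47 (limma adjusted p = 0.0262). It was 3.20 between the arrays of slide 1 and 2.34 between those of slide 2. It did not pass when Bach2-vector replicate 1 or 3 or control replicate 1 or 2 was left out (adjusted p = 0.0969 to 0.122), nor in a fit of these 6 arrays alone (adjusted p = 0.0509).

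Gata3 read -0.83, -1.03 and -0.71 in Bach2-vector MPPs, against -3.93, -1.93 and -2.58 in control-vector MPPs, a 3.88-fold difference of 1.96 ± 0.45 (limma adjusted p = 0.0779). The SD was 0.16 over the Bach2-vector arrays and 1.02 over the control arrays. It passed with slide as a block (adjusted p = 0.0438) and after quantile normalization (adjusted p = 0.0315), and not with the replicate number as a block (adjusted p = 0.0801). Tcf7 read -3.03, -1.87 and -1.55 in Bach2-vector MPPs, against -3.99, -3.51 and -3.18 in control-vector MPPs, a difference of 1.41 ± 0.53 (adjusted p = 0.4). Cd3d read -4.46, -4.44 and -4.85 in Bach2-vector MPPs, against -5.12, -5.80 and -5.37 in control-vector MPPs, a difference of 0.85 ± 0.28 (adjusted p = 0.291), with 1 control array not above background.

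Notch1 went opposite ways by probe. The brighter probe read -2.52, -3.01 and -1.95 in Bach2-vector MPPs, against -1.26, -1.76 and -2.12 in control-vector MPPs, a difference of -0.78 ± 0.33 (adjusted p = 0.525). The dimmer probe read -5.43, -5.84 and -5.20 in Bach2-vector MPPs, against -6.06, -6.55 and -5.74 in control-vector MPPs, a difference of 0.63 ± 0.29 (adjusted p = 0.612). Thy1 was high with either vector, at 3.32, 2.72 and 4.06 in Bach2-vector MPPs, against 3.83, 3.51 and 4.06 in control-vector MPPs, and differed by -0.43 ± 0.57. Bcl11b (0.17 ± 0.54) and Cd3e (-0.05 ± 0.26) differed by less than their error, and Cd3g was above background on no array of either group. The brighter Cd2 probe was above background on 1 of 6 arrays, and the dimmer on 1 of 3 Bach2-vector and 3 of 3 control-vector arrays.

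None of the 16 Notch, 20 T-cell receptor, 16 transcription factor or 11 cytokine receptor genes tested passed between vectors. The Notch target Hes1 had the largest difference of its list, at -2.72 ± 1.09 with the Bach2 vector and -6.96 ± 2.03 with the control vector (4.24 ± 1.24, adjusted p = 0.192), but was above background on 1 of 3 control arrays; next by p in that list was Heyl (-0.37 ± 0.27). The kinase Fyn (1.22 ± 0.26, adjusted p = 0.061) and Tox (2.04 ± 0.55, adjusted p = 0.149) were higher on every Bach2-vector array, and Ubash3a, which dampens receptor signals (-1.41 ± 0.32, adjusted p = 0.0753), and Gfi1 (-0.81 ± 0.29, adjusted p = 0.345) lower. Beside Il2ra, Il7r was higher by 2.31 ± 0.59 (adjusted p = 0.121) and Il2rb by 1.64 ± 0.44 (adjusted p = 0.146), both without overlap. The summed linear signal of 15 NK and innate lymphoid markers was 65.1 to 74.7 with the Bach2 vector and 25.6 to 43.6 with the control vector, and 12 of 14 tested had a higher mean, against 47.2% of all genes. Of these the lectin receptor Klrd1 passed, at 4.19 ± 0.55 with the Bach2 vector and -0.48 ± 1.39 with the control vector (25.5-fold, adjusted p = 0.00892), while Klrk1 and Ncr1 were above background on no array of either. The part of these markers in the values of the 10 genes was not tested.

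B220+ cells that grew from Bach2-vector MPPs under B-lineage conditions had more Cd2, Cd3d and Tcf7 than control-vector MPPs and less Thy1. Against Bach2-vector MPPs of the shorter culture they had more Cd2 and Cd3d and less Il2ra. Of these 3 groups, Cd3g was above background in B220+ cells alone. These groups differ in culture, in its length and in the B220 sort, and B220+ cells differ from control-vector MPPs in the vector as well. These differences cannot be told apart, and there was no control-vector B220+ group. Both comparisons use the same B220+ arrays, and all 3 of these were on slide 1. Against control-vector MPPs 5 of 10 genes passed, 4 higher and 1 lower, where 12.1% of 16984 genes passed, 4.65% higher and 7.45% lower. For 6 of 10 genes the arrays did not overlap, 4 higher and 2 lower, against 34.5% of all genes, 11% higher and 23.5% lower. Against Bach2-vector MPPs 4 of 10 passed, 3 higher and 1 lower, where 6.16% of genes passed, 2.01% higher and 4.16% lower, and 6 of 10 did not overlap, 3 higher and 3 lower, against 29.2%, 7.46% higher and 21.7% lower. Cd3g and Cd2 are among the 5 and the 4. The other genes that passed were Tcf7, Cd3d and Thy1 against control-vector MPPs and Cd3d and Il2ra against Bach2-vector MPPs. Cd3g and the brighter Cd2 probe met the minimum signal for a test only through the B220+ arrays. They had to differ, so their calls carry no weight. The dimmer Cd2 probe, given below, met it without the B220+ arrays. The median over all genes was -0.29 against control-vector and -0.25 against Bach2-vector MPPs, and -0.08 and -0.07 after quantile normalization. With it the genes that passed divided into 980 higher and 1037 lower, in place of 790 and 1266, against control-vector MPPs, and into 450 and 600, in place of 341 and 706, against Bach2-vector MPPs.

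Cd2 had the largest differences of the 10 genes in both B220+ comparisons. It read 1.51, 1.98 and 4.00 in B220+ cells, against -8.79, -8.33 and -6.37 in Bach2-vector MPPs and -8.77, -8.22 and -7.15 in control-vector MPPs, where 1 of those 6 arrays was above background. Its B220+ mean lay at least 545-fold above the signal of control-vector MPPs, given here with no test. A lower bound sets the B220+ mean against the weakest signal measurable on the control arrays. Without B220+ replicate 3, the highest array, the difference from control-vector MPPs was 9.79 in place of 10.54. With normexp that log2 difference was 7.47, smaller than the bound, which holds for the main processing only. The dimmer Cd2 probe was above background on all control arrays, so its test does not rest on the B220+ arrays alone. It gave 63.9-fold against control-vector MPPs (limma adjusted p = 0.00097) and 73.5-fold against Bach2-vector MPPs (adjusted p = 0.00135). The 2 probes thus differed in size and not in direction.

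Cd3g read -4.08, -4.11 and -2.83 in B220+ cells, against -9.03, -6.93 and -7.34 in Bach2-vector MPPs and -9.27, -8.20 and -9.04 in control-vector MPPs. It was above background on every B220+ array and on none of the other 6, so that with a B220+ array left out it was not tested. Its B220+ mean lay at least 7.76-fold above the signal of Bach2-vector MPPs and at least 7.58-fold above that of control-vector MPPs, given here with no test. These bounds hold for the main processing only. With normexp the log2 differences were smaller than the bounds, at 1.87 from Bach2-vector and 2.01 from control-vector MPPs. Cd3d read -3.57, -2.95 and -3.04 in B220+ cells, 2.63-fold higher than in Bach2-vector MPPs (1.40 ± 0.28, limma adjusted p = 0.0228) and 4.73-fold higher than in control-vector MPPs (2.24 ± 0.28, adjusted p = 0.00155). Its 3 groups did not overlap, with Bach2-vector MPPs between the others. The call against Bach2-vector MPPs was lost with slide as a block (adjusted p = 0.0817) and without B220+ replicate 2 or Bach2-vector replicate 2 or 3 (at most 0.0884).

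The third CD3 chain, Cd3e, did not pass. It read -2.03, -2.29 and -2.05 in B220+ cells, against -1.63, -1.29 and -1.47 in Bach2-vector MPPs and -1.86, -1.15 and -1.23 in control-vector MPPs. The B220+ arrays were the lowest in both comparisons, with differences of -0.66 ± 0.26 from Bach2-vector MPPs (limma adjusted p = 0.169) and -0.71 ± 0.26 from control-vector MPPs (adjusted p = 0.11, and 0.0477 with normexp). Whether Cd3e differs from Cd3d and Cd3g in its change was not tested, and the genes are read by different probes.

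Tcf7 read -1.57, -1.17 and 0.23 in B220+ cells, 6.6-fold higher than in control-vector MPPs (2.72 ± 0.53, limma adjusted p = 0.0114) and 2.49-fold higher than in Bach2-vector MPPs, where the arrays overlapped (1.32 ± 0.53, adjusted p = 0.175). Against control-vector MPPs Tcf7 and Cd3d passed in all 6 fits that each left out an array. The dimmer Tcf7 probe was above background on 2 B220+ arrays, 1 Bach2-vector array and no control array, and read -5.65, -5.55 and -5.43 in B220+ cells, against -7.76, -8.08 and -6.95 in control-vector MPPs. Gata3 read -2.33, -2.13 and -2.06 in B220+ cells and lay below every Bach2-vector array (-1.31 ± 0.45, adjusted p = 0.122), while it overlapped the control arrays (0.64 ± 0.45, adjusted p = 0.353). Bcl11b read -7.39, -7.43 and -5.59, above background on replicate 3 only, and differed by -1.19 ± 0.54 from Bach2-vector MPPs (adjusted p = 0.218) and by -1.01 ± 0.54 from control-vector MPPs (adjusted p = 0.239). Without that array it passed as lower in both, by -1.79 (adjusted p = 0.032) and by -1.62 (adjusted p = 0.0342), with no B220+ array left above background.

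Il2ra read -1.89, -1.52 and -1.19 in B220+ cells, below every Bach2-vector MPP array, and was 5.92-fold lower than in that group (-2.56 ± 0.47, limma adjusted p = 0.0143). With slide as a block the difference was -2.65 and the adjusted p 0.0529, and the adjusted p was 0.0519 to 0.0645 when B220+ replicate 1 or 2 or Bach2-vector replicate 3 was left out. Against control-vector MPPs it differed by 0.06 ± 0.47 (adjusted p = 0.939), with a mean of -1.53 ± 0.35 in B220+ cells against -1.60 ± 0.80 in control-vector MPPs (SD, n = 3 each). Thy1 read 1.01, 0.66 and 2.88 in B220+ cells and was 4.86-fold lower than in control-vector MPPs (-2.28 ± 0.57, adjusted p = 0.0337). Of 6 fits that each left out an array, it passed only without B220+ replicate 3 (adjusted p = 0.00256), and it was lost with slide as a block (0.106) and in a fit of these 6 arrays alone (0.0563). Against Bach2-vector MPPs it was -1.85 ± 0.57 (adjusted p = 0.0953), with overlap, and passed without B220+ replicate 3 (adjusted p = 0.00775).

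Notch1 again depended on the probe. The brighter probe read -2.10, -2.22 and -2.34 in B220+ cells and differed by -0.51 ± 0.33 from control-vector MPPs (limma adjusted p = 0.318) and by 0.27 ± 0.33 from Bach2-vector MPPs (adjusted p = 0.638). The dimmer one read -5.02, -4.70 and -4.89 in B220+ cells and was 2.37-fold higher than in control-vector MPPs (1.25 ± 0.29, adjusted p = 0.0239), with 2 of 3 control arrays above background.

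**Figure D3:**
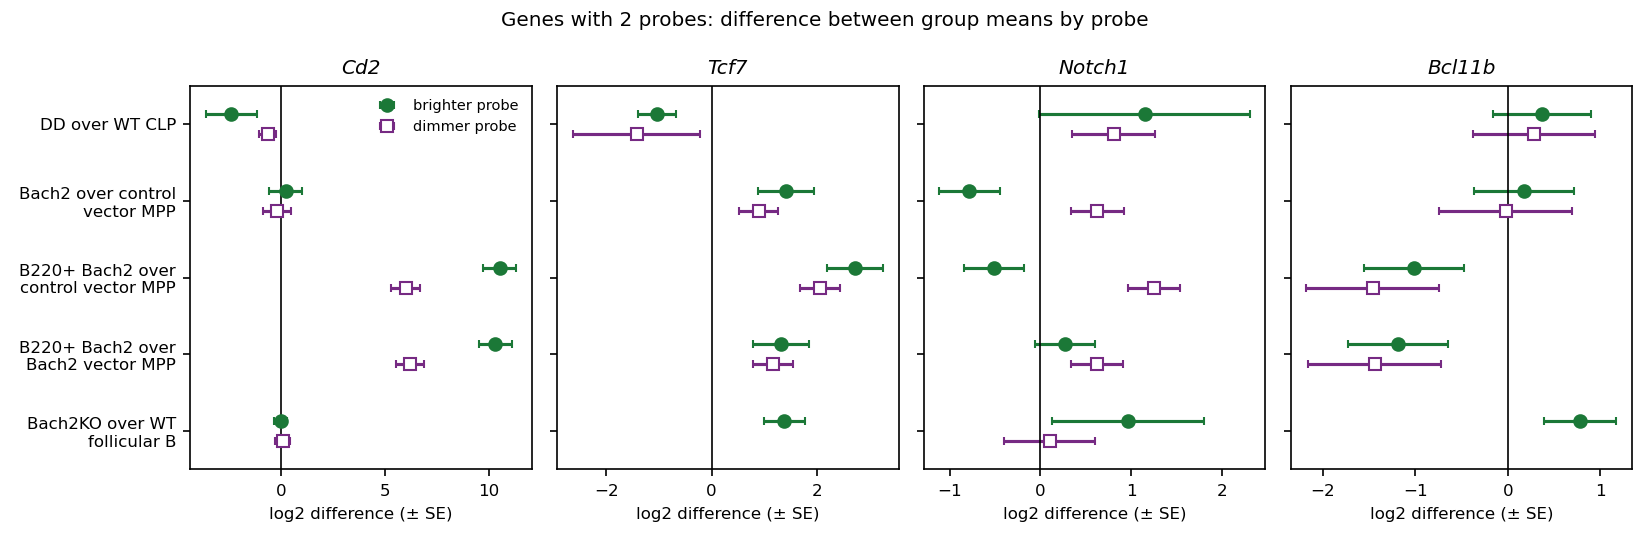
Difference between group means in log2 units, with its SE, for the brighter (green circles) and dimmer (open purple squares) probe of the 4 genes with 2 probes. The probes of Cd2 and Tcf7 point the same way in both B220+ comparisons, the Notch1 probes point opposite ways in Bach2-vector and B220+ cells against control-vector MPPs, and the dimmer Tcf7 and Bcl11b probes were not tested in follicular B cells.

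Of all genes, 4.65% passed as higher in B220+ cells against control-vector MPPs and 7.45% as lower. Among 20 related genes of T-cell receptor signalling and the T-cell surface, 5 passed as higher in this comparison and 1 as lower. Those higher were Cd7 (10.5-fold, limma adjusted p = 0.00761), Cd6 (6.71-fold, adjusted p = 0.00589), the kinases Zap70 (5.06-fold, adjusted p = 0.0125) and Fyn (3.6-fold, adjusted p = 0.00271), and Skap1, which was above background on no control array and varied widely over the B220+ arrays (-3.62 ± 2.42, SD, n = 3; adjusted p = 0.0279). Ubash3a fell 8.14-fold (adjusted p = 0.000625). Against Bach2-vector MPPs Cd6 rose 5.61-fold (adjusted p = 0.0154) and Ubash3a fell 3.07-fold (adjusted p = 0.0203). The median difference of the list from control-vector MPPs was 0.30, against -0.29 over all genes.

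Of 16 early T-cell transcription factors the chromatin organizer Satb1 rose against control-vector MPPs (4.69-fold, limma adjusted p = 0.022), and none passed against Bach2-vector MPPs, where Ets1 (1.39 ± 0.47, adjusted p = 0.123) and Lyl1 (0.96 ± 0.33, adjusted p = 0.127) had the smallest p. Of 16 Notch pathway genes none rose; the ligand Jag2 fell 2.22-fold against control-vector MPPs (adjusted p = 0.0458) and 2.55-fold against Bach2-vector MPPs (adjusted p = 0.0398), and the fringe gene Mfng fell 1.88-fold against control-vector MPPs (adjusted p = 0.0476). Of 11 cytokine receptor genes Il7r rose 31.8-fold (adjusted p = 0.00116) and Il2rb 10.6-fold (adjusted p = 0.00172) against control-vector MPPs, and against Bach2-vector MPPs Il7r rose 6.39-fold (adjusted p = 0.0328) and Il2rb 3.41-fold (adjusted p = 0.0497). Cish, a STAT5 target that inhibits cytokine signals, fell 5.89-fold against control-vector MPPs (adjusted p = 0.00248) and 4.75-fold against Bach2-vector MPPs (adjusted p = 0.00781).

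Markers of other cell types were read on the same arrays. Of all genes, 34.2% had a higher mean in B220+ cells than in control-vector MPPs and 34.5% than in Bach2-vector MPPs. Of 8 B-cell markers Ebf1 was above background on 1 of 3 B220+ arrays and Ms4a1 on 0, while Cd79b stood at 3.63 ± 0.36 in B220+ cells, 3.29 ± 0.13 in Bach2-vector and 3.20 ± 0.36 in control-vector MPPs (SD, n = 3 each). Cd22 was higher in B220+ cells by 2.95-fold than in Bach2-vector MPPs (limma adjusted p = 0.0064) and by 2.4-fold than in control-vector MPPs (adjusted p = 0.00958). Of 6 B-cell markers tested, 3 had a higher and 3 a lower mean in each comparison. The summed linear signal of the list was 11.4 to 16.8 in B220+ cells, 9.70 to 11.4 in Bach2-vector and 8.32 to 13.0 in control-vector MPPs. Of 10 T-cell markers Cd8b1 was above background on 0 B220+ arrays and Ptcra, the pre-T-cell receptor chain, on 1, and the sums were 6.04 to 14.2 in B220+ cells, 7.18 to 9.01 in Bach2-vector and 4.50 to 7.33 in control-vector MPPs. Of these markers 7 had a higher and 3 a lower mean than in control-vector MPPs, and Cd6 and Zap70, given above, passed as higher. Against Bach2-vector MPPs 6 had a higher and 4 a lower mean, and Cd6 passed as higher. NK and innate lymphoid markers summed to 73.4 to 83.9 in B220+ cells, 65.1 to 74.7 in Bach2-vector and 25.6 to 43.6 in control-vector MPPs, with Ncr1 above background on no B220+ array. Of 14 tested, Klrd1 (51.9-fold, adjusted p = 0.000874) and Id2 (2.48-fold, adjusted p = 0.0376) were higher than in control-vector MPPs, and Il2rb, given above, than in either. The mean was higher for 10 and lower for 4 against control-vector MPPs, and higher for 7 and lower for 7 against Bach2-vector MPPs. Klrk1 read -2.59, -2.54 and -3.18 in B220+ cells and was above background on no MPP array, so that its call rests on the B220+ arrays alone. Plasmacytoid dendritic cell markers summed to 164.3 to 192.6 in B220+ cells, 121.9 to 183.6 in Bach2-vector and 82.7 to 140.7 in control-vector MPPs, with Siglech at 5.47 to 5.70 in B220+ cells. Ly6d was 77.7-fold higher than in Bach2-vector (adjusted p = 0.000837) and 53.5-fold higher than in control-vector MPPs (adjusted p = 0.000716), and Irf8 was 2.59-fold (adjusted p = 0.0278) and 3.4-fold higher (adjusted p = 0.00553). The list did not rise as a whole. Of its 5 markers, 3 had a lower mean than in Bach2-vector MPPs and 2 a lower mean than in control-vector MPPs. Granulocyte and monocyte markers summed to 138.7 to 171.8 in B220+ cells, 108.4 to 159.0 in Bach2-vector and 146.8 to 205.6 in control-vector MPPs. Among them Ngp, a neutrophil granule gene, read -0.79, -1.25 and -0.83 in B220+ cells. It was above background on 1 array of each MPP group, so that its calls too rest on the B220+ arrays. Csf1r was 10.4-fold higher than in Bach2-vector MPPs (adjusted p = 0.0382). Of these 6 markers, 4 had a lower mean than in control-vector MPPs and 1 a lower mean than in Bach2-vector MPPs. Mast-cell and basophil markers had a mean of 2.35, 1.00 and 4.00 in B220+ replicates 1, 2 and 3. By replicate it was -0.76, 1.76 and 1.52 in Bach2-vector and -0.96, 1.06 and 0.82 in control-vector MPPs. Of these 6 markers 5 had a higher and 1 a lower mean in each comparison, and none passed. B220+ replicate 3 was also the highest of the group in 7 of the 10 genes, Tcf7, Gata3, Bcl11b, Il2ra, Cd3g, Thy1 and Cd2. The share of all genes highest in that replicate was not counted. The part of these markers in the results was not tested.

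In Bach2KO follicular B cells Thy1 was 3.33-fold higher than in WT cells, and 8 of the 9 genes tested had a higher mean, against 38.1% of all genes. The comparison asks what the loss of Bach2 does in mature B cells stimulated through their receptor. Thy1 was the 1 gene of 9 that passed, against 2.7% of 13064 genes, 2.2% higher and 0.505% lower. Thy1, Tcf7 and Cd3g had no overlap, 3 of 9 and all higher, against 18.7% of all genes, 8.11% higher and 10.6% lower. The median of the 9 was 0.78, against -0.16 over all genes. The replicate numbers were taken to pair these arrays, with r of 0.53 to 0.86 at the same number and at most 0.50 between others. With the number as a block 5 of 9 passed, all higher, against 22.8% of all genes and 9.56% in the higher direction. The 5 include Bcl11b, which reversed at number 3, and Notch1, whose difference lay mostly at number 2.

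Thy1 read 0.09, 0.38 and 0.10 on the Bach2KO arrays, against -1.41, -1.82 and -1.40 on the WT arrays. Every Bach2KO array lay above every WT array, and the difference was 1.73 ± 0.30 (limma adjusted p = 0.0164; 3.13e-05 with the block). Between arrays of the same number it was 1.50, 2.20 and 1.50. It did not pass without Bach2KO replicate 3 or WT replicate 2 or 3 (adjusted p at most 0.114), nor with no filter on weak genes (0.0568).

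Tcf7 read -2.19, -1.10 and -1.81 on the Bach2KO arrays, against -3.04, -3.56 and -2.63 on the WT arrays, a difference of 1.38 ± 0.39 (limma adjusted p = 0.142; 0.00266 with the block). Cd3g read -1.60, -1.17 and -1.43 on the Bach2KO arrays, against -2.22, -3.27 and -2.25 on the WT arrays, a difference of 1.18 ± 0.37 (adjusted p = 0.196; 0.00474 with the block). Both were higher in Bach2KO cells at every number, and most at number 2, by 2.47 and 2.10. Bach2KO replicate 2 was also the weakest array of the experiment, with a 75th percentile of signal of 97.3 against 194.5 to 357.5 on the other 5, and without it Tcf7 and Cd3g differed by 1.08 and 1.07.

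Bcl11b read -3.36, -2.68 and -3.96 on the Bach2KO arrays, against -4.49, -4.03 and -3.82 on the WT arrays, a difference of 0.78 ± 0.39 that reversed at number 3 (limma adjusted p = 0.555; 0.0426 with the block). Notch1 read -2.46, 1.21 and -1.12 on the Bach2KO arrays, against -2.72, -1.17 and -1.39 on the WT arrays, a difference of 0.97 ± 0.84 (adjusted p = 0.721; 0.0446 with the block). It was 0.26, 2.38 and 0.27 by number, it was -0.03 without Bach2KO replicate 2, and the dimmer probe gave 0.10 ± 0.50. Cd3d was higher at every number, at 0.21, 0.52 and -0.11 on the Bach2KO arrays, against 0.13, -0.73 and -0.48 on the WT arrays (0.57 ± 0.35, adjusted p = 0.638; 0.0927 with the block). Gata3 was too weak to test, above background on 2 Bach2KO arrays (-4.70 and -3.79) and on no WT array.

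Il2ra, Cd3e and Cd2 had the smallest differences of the 9 genes. Il2ra read 4.25, 3.08 and 3.78 on the Bach2KO arrays, against 4.04, 3.19 and 3.27 on the WT arrays (0.20 ± 0.40, limma adjusted p = 0.872). Cd3e read 1.91, 3.28 and 2.56 on the Bach2KO arrays, against 2.19, 2.56 and 2.44 on the WT arrays (0.19 ± 0.39, adjusted p = 0.879). Cd2 read 2.01, 1.70 and 2.06 on the Bach2KO arrays, against 2.30, 1.73 and 1.86 on the WT arrays (-0.04 ± 0.31, adjusted p = 0.972), and its sign turned after quantile normalization (0.11).

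**Figure D4:**
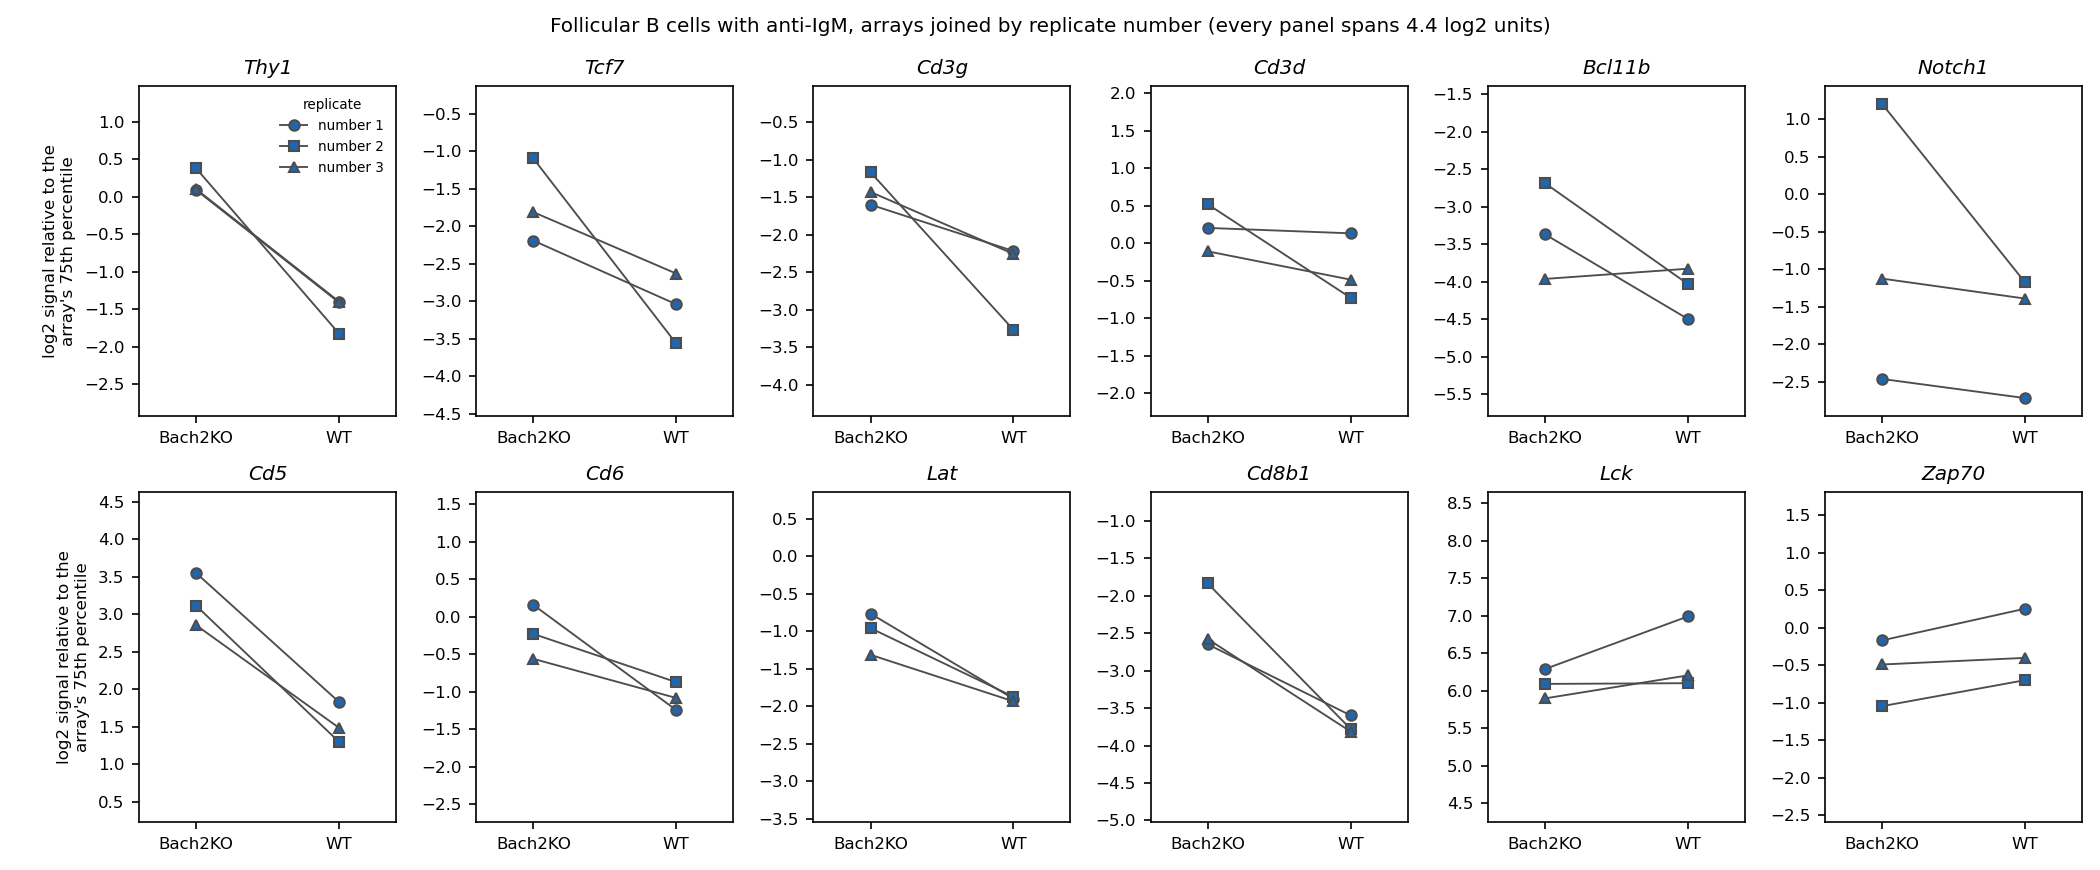
Levels in follicular B cells, as log2 signal relative to the 75th percentile of the array, of 6 of the genes (top row) and of 6 T-cell markers (bottom row), with arrays of the same replicate number joined and Bach2KO left of WT. Thy1, Tcf7, Cd3g, Cd5, Cd6, Lat and Cd8b1 are higher in Bach2KO cells at every number, and Lck and Zap70 are not.

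Among the related genes in follicular B cells, 14 of 16 genes of T-cell receptor signalling and the T-cell surface had a higher mean in Bach2KO cells, against 38.1% of all genes. Their median was 0.88, and 2 passed. Cd5, a scavenger receptor that restrains antigen receptor signals, rose 3.1-fold (limma adjusted p = 0.0334), and Ctla4, an inhibitory receptor, was above background on all Bach2KO arrays (-3.26 ± 0.25) and on no WT array, so that it was tested only through its high group and had to differ. Of 11 cytokine receptor genes Il2rb, the beta chain that pairs with Il2ra, rose 24.6-fold to 1.99 ± 0.11 in Bach2KO cells, against -2.63 ± 0.06 in WT cells (SD, n = 3 each; limma adjusted p = 0.000157), and Socs2 rose 7.1-fold (adjusted p = 0.00172). Of 8 Notch pathway genes Rbpj rose 2.65-fold (adjusted p = 0.0477) and the Notch target Dtx1 fell 2.73-fold (adjusted p = 0.0391). None of 14 transcription factors passed, with Runx3 (-1.32 ± 0.32, adjusted p = 0.0821) and Hhex (-0.92 ± 0.30, adjusted p = 0.221) at the smallest p.

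T-cell markers were present in both follicular B-cell groups, whose labels name no gate. Of 10 markers, 8 or 9 were above background on each array and Ptcra was on none, and the mean level of the list was -0.25, 0.05 and -0.43 on the Bach2KO arrays and -0.83, -0.77 and -0.85 on the WT arrays. Their summed linear signal was 78.0 to 97.1 in Bach2KO and 83.4 to 136.8 in WT cells. Cd4 read 1.74, 3.85 and 3.07 on the Bach2KO arrays, against 1.82, 3.36 and 2.85 on the WT arrays, and Lck, a kinase that B cells also express, read 6.29, 6.09 and 5.90 on the Bach2KO arrays, against 6.99, 6.10 and 6.20 on the WT arrays. The means in Bach2KO cells against WT cells were -0.21 against -1.07 for Cd6, -1.01 against -1.90 for Lat and -2.36 against -3.73 for Cd8b1, all without overlap. The mean of 8 B-cell markers was 2.97 to 3.52 in Bach2KO and 3.52 to 4.20 in WT cells. The part of T cells in the levels of the CD3 chains, Tcf7 and Thy1 was not tested.

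Across the 7 group means the 10 genes did not move as 1 set. The closest pairs were Bcl11b with Cd3e (Pearson r = 0.96 over 7 group means) and Cd3g with Cd2 (r = 0.95), and Cd3d and Cd3g, whose genes are neighbours, had r = 0.90. Gata3 ran against Cd3d (r = -0.88), Cd3e (r = -0.85) and Cd3g (r = -0.73). The points share 3 experiments that differ in cells and amplification, so the values are a description. Among 16069 genes ranked, the patterns most like each member over the same 7 means were those of Pde3b and Cyth4 for Tcf7 (r = 0.98 each), Kcnc4 and Irgm2 for Gata3 (0.99 each), Lrp3 and Arhgap33 for Bcl11b (1.00 each), and Ermn and Ly6a for Notch1 (0.95 each). They were Hvcn1 and Zfp971 for Il2ra (0.99 each), Il4i1 and Tox4 for Cd3d (0.99 each), Vmn1r87 and Tbc1d22b for Cd3e (1.00 each), and Lmntd2 and Elmo3 for Cd3g (0.98 each). For Thy1 they were Lrpap1 and S1pr2 (0.99 each), and for Cd2 Lin28a (0.99) and Klrg1 (0.98).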

How the data were processed

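Single-colour Agilent mouse arrays were read with Feature Extraction 10.7.3.1 per the file headers (the submitters' processing notes name 9.1). The values used are the deposited intensity of each spot after background subtraction (processed signal), per the file headers. The series' deposited value table held the same numbers. RNA was amplified before labelling, per the labels' protocols, which can compress or widen differences between experiments. The headers name mm9, so no coordinates of the files were used; probes were named through RefSeq accessions (GRCm38.p6), 26407 of 55681 gene probes matched, and coordinates and promoters are those of that RefSeq build.

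From these intensities the log2 signal minus the 75th percentile of each array was computed, without control and outlier spots, and repeated spots of 1 probe were averaged. Tests covered genes whose probe rose well above background on 3 or more of an experiment's arrays. Differences were fitted with limma 3.58.1 in R 4.3.3 (lmFit, eBayes) with Benjamini-Hochberg adjustment over all genes of a comparison; the 9 MPP arrays shared their spread. The number of arrays limits the precision, and no spot of a gene was saturated. Where every array of a group failed to rise well above background, the fold is a lower bound under the main processing. The fit was tested on simulated data. The 10 genes, the 4 lists of related genes (65 genes) and the 7 marker lists were chosen with earlier results of these data known. All 10 genes are named in each comparison, and of each related list every gene that passed or, where none did, the 2 with the smallest p.

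Replicate numbers, shared by the groups, were taken to pair arrays where deviations from the group mean correlated above 0.1 in every pair: r was 0.43, 0.39 and 0.22 in CLPs, 0.65, 0.41 and 0.30 between vectors and 0.86, 0.72 and 0.53 in follicular B cells. The highest r between arrays of different numbers was 0.072 in CLPs, 0.31 between vectors, above the 0.30 of number 3, and 0.50 in follicular B cells. Alternatives were quantile normalization, normexp with an offset of 50 (on median in place of mean spot signals), filters, a variance trend, slide or number as a block, fits of the compared arrays alone, other probes and leaving out each array. Levels of some marker genes are not reported here.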

Additional observations from a re-analysis of the deposited data

How the results depend on the processing

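Of the values of the 10 genes under the alternatives, 618 kept direction and side of the threshold, 24 no longer passed, 17 newly passed and 28 reversed; the causes were not tested. The deposited value table holds the numbers of the main fit, so its fit could not differ, and its values are among the 618. In DD against WT CLPs 0 genes of the array passed with quantile normalization, normexp or the replicate block, and 0 to 27 when 1 array was left out. Between vectors 2 of the 10 genes passed with quantile normalization, normexp or the slide block, 0 with the compared arrays alone and 0 to 1 without 1 array, and 96 to 198 of all genes without 1 array. For B220+ against control-vector MPPs 2 of the 10 passed where all arrays had to be above background (6 tested), 3 to 5 without 1 array, and 1028 to 2637 of all genes. Against Bach2-vector MPPs these were 1, 1 to 5 and 448 to 1698, with 2 of the 10 under the slide block and 670 of all genes with the compared arrays alone. In follicular B cells 0 of the 10 passed with no filter, 5 with the replicate block, 3 with the slide block and 0 to 1 without 1 array, and of all genes 2976, 1194 and 109 to 370 under the last 3. The replicate numbers do not pair the B220+ arrays (r at most 0.12); with the number as a block 5 of the 10 genes and 2587 of all genes passed against control-vector MPPs, and 6 and 1387 against Bach2-vector MPPs, Tcf7 and Thy1 in addition. The replicate block changed no other call than those given.

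Signs turned for Cd3g in CLPs (-0.18) and Cd2 in follicular B cells (0.11) with quantile normalization, for Cd2 there with normexp (0.12), for Il2ra in B220+ cells against control-vector MPPs with the slide block (-0.022), and with the dimmer probe for Bcl11b (-0.024), Notch1 (0.63) and Cd2 (-0.20) between vectors, Notch1 against control-vector MPPs (1.25) and Cd2 in follicular B cells (0.056). Leaving out 1 array gave ranges across 0 in CLPs for Notch1 (-0.088 to 2.15), Cd3e (-0.24 to 0.53) and Cd3g (-0.78 to 1.02); between vectors for Bcl11b (-0.26 to 0.42), Cd3e (-0.28 to 0.082) and Cd2 (-0.51 to 0.70); for Il2ra in B220+ cells against control-vector MPPs (-0.28 to 0.51); and in follicular B cells for Notch1 (-0.034 to 1.80), Cd3e (-0.16 to 0.52), Il2ra (-0.075 to 0.51) and Cd2 (-0.15 to 0.13). Signal over background limited Cd3g, Bcl11b and Cd2 most.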
